A study of Macaca mulatta with 5 samples.

Results

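The matured cells (N3) were compared with the neurospheres in selection (N1) of a culture in which rhesus macaque embryonic stem cells were differentiated towards serotonin neurons. Both stages were chosen by their labels, with earlier results of these data known. The expansion stage between them (N2) was passed over because its array had the highest ratio of 3' to 5' actin signal. The comparison therefore used 2 of the 5 arrays of the study, 1 for each stage. Of 14132 named genes on the array, 10652 reached a signal of 100 on N3 or N1 and are called measured. Many neuronal genes, several genes of GABA and glutamate signalling and embryonic skeletal muscle genes were higher in N3. Liver plasma protein, haemoglobin, endothelial, epithelial and cell cycle genes were lower in N3. The serotonin neuron genes TPH1, TPH2 and LMX1B lay below the floor of 100 on both arrays.

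Cells of the line 366.4, which was derived from a preimplantation rhesus embryo, were carried through 5 stages with 1 Affymetrix rhesus array each. N3 cells came from spheres that had been expanded with FGF4, a fibroblast growth factor, and were then kept in DMEM/F12 medium without FGF4 on growth-factor-reduced (GFR) wells. N1 spheres came from embryoid bodies kept for 7 to 9 days in DMEM/F12 with N2 supplement, which favours neural cells, and had never been given FGF4. The length of the N3 stage is not given in the sources used here. The other stages were undifferentiated cells at passage 13 on a mouse embryonic fibroblast layer (ESC), embryoid bodies of 6 to 8 days (EB) and the FGF4 expansion of 7 to 9 days (N2). All stages share a single cell line and no culture was repeated, so the differences below are between a pair of arrays and have no replicate check, standard error or p-value.

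Neural stem cells express SOX and PAX transcription factors and send each other Notch signals that hold back differentiation. Cells that leave the cell cycle switch on proneural factors, then RNA-binding proteins, a neuronal cytoskeleton, ion channels and the machinery of synaptic release. Serotonin neurons arise in the ventral hindbrain under FEV, GATA and LMX1B transcription factors, make serotonin with tryptophan hydroxylase and take it back up through the transporter SLC6A4. Embryoid bodies contain derivatives of every germ layer, so a culture grown from them can also hold yolk sac or liver-like endoderm, blood, endothelium, muscle and connective tissue.

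Signals are the deposited intensities rescaled so that each array has the same trimmed mean of 500, and values below a floor of 100 were set to 100 before ratios were taken. Where 1 of the arrays lay below the floor only a bound can be had, given as at least so many fold. The deposited values already had nearly equal trimmed means on all arrays (199.1 to 199.3). The 3' to 5' ratio of the actin control, which is high where RNA is degraded or poorly copied, was 8.63 in N3 and 5.43 in N1, against 25.21 in N2. For GAPDH it was 2.10 in N3 and 1.69 in N1, and for EF1a it was 1.06 in N3 and 0.83 in N1. The part of this difference in the results below was not tested. Because whole cultures were measured, fewer cells of a type and less RNA per cell cannot be told apart.

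Between N3 and N1, 897 genes were at least 2-fold higher in N3, which is 8.42% of the 10652 measured genes. A further 710 genes, or 6.67%, were at least 2-fold lower in N3, and 9045 (84.9%) lay within 2-fold. The median log2 ratio of N3 over N1 over all measured genes was -0.06, and the middle of the distribution ran between -0.46 and 0.35 (quartiles). Of the genes past 2-fold, 55.8% were higher in N3. When the arrays were set to the same mean signal of the hybridisation controls instead, 599 genes were higher and 1847 lower in N3, so that 24.5% of the genes past 2-fold were higher, and the median of all genes shifted to -0.41. At 4-fold the counts were 244 higher and 116 lower. In 199 of the higher genes the N1 signal was below the floor, and in 145 of the lower genes the N3 signal was.

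**Figure D1:**
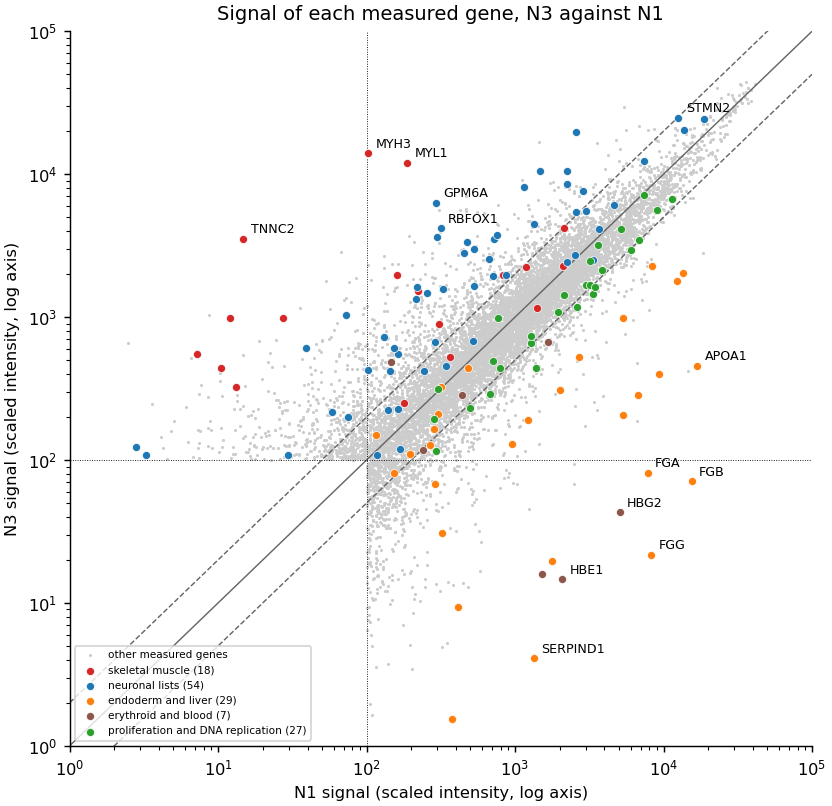
Signal of each measured gene in N3 (vertical, log axis) against N1 (horizontal, log axis), in scaled intensity before the floor, with 1 array a stage. The solid line marks equal signal, the dashed lines 2-fold and the dotted lines the floor of 100, and coloured points are gene lists with the number measured in brackets (neuronal lists are the cytoskeleton, RNA-binding and synaptic lists together). Skeletal muscle genes such as MYH3 (14054 in N3, 103 in N1) lie far above the line, and fibrinogen genes such as FGB (71.2 in N3, 15461 in N1) far below it.

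The only other technical gauge in the arrays was the agreement of different probe sets of a gene. Of 4307 genes with another measured probe set, the log2 ratios of the brightest and the next probe set differed with an SD of 0.50 per probe set. Among the 598 genes past 2-fold that had such a partner, 530 (88.6%) had both ratios in the same direction, and 275 (46.0%) passed 2-fold with both. Probe sets of a gene share the hybridisation, so this spread is not that of replicate cultures. Where a gene named below passed 2-fold but its next probe set did not pass it in the same direction, the log2 ratio of the next one is given. Ratios of other probe sets were also taken after the floor. Where such a probe set lay below the floor on 1 array, its ratio is only a bound. A small value of that kind does not show that the probe sets disagreed.

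**Figure D2:**
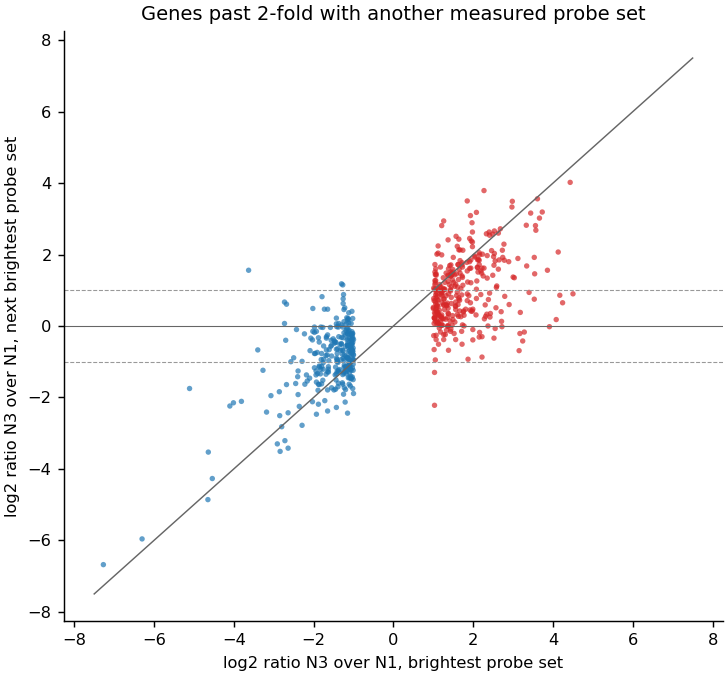
The log2 ratio of N3 over N1 of the brightest probe set of each gene (horizontal) against that of the next brightest measured probe set (vertical), for the 598 genes past 2-fold that have both. Red points were higher and blue points lower in N3 by the brightest probe set, the diagonal marks equal ratios and the dashed lines 2-fold. For 530 genes both probe sets lie on the same side of 0, and 275 pass 2-fold on both axes.

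The measured genes were read in 45 lists of cell type, pathway and function, which together name 1110 genes. Of these, 796 have a probe set with a single gene symbol in the annotation, which is what on the array means below. Of the listed genes, 665 were measured on N3 or N1. The other 314 genes were not found by name, and unnamed probe sets may still represent them. A list is given by its measured members past 2-fold and by its median log2 ratio, to be read beside the 8.42% and 6.67% of all genes and the median of -0.06. With hybridisation-control scaling most list medians moved down with the median of all genes, and lists whose median changed sign are named as such.

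**Figure D3:**
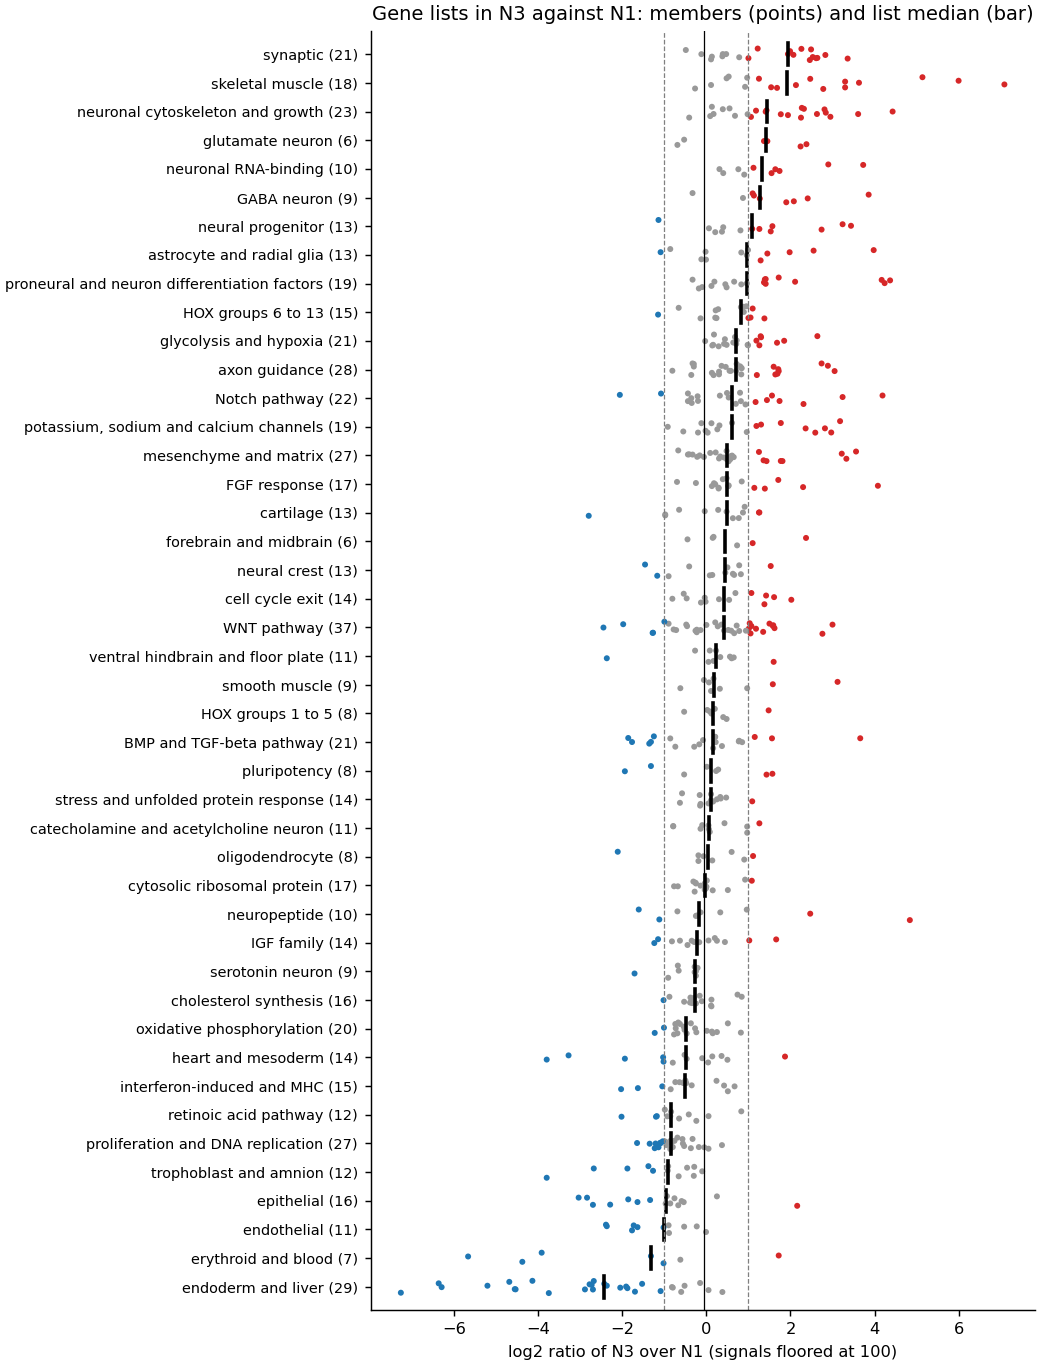
The log2 ratio of N3 over N1 of each measured member (points) and the median (black bar) of every list with at least 6 measured members, whose number stands in brackets. Red points are at least 2-fold higher and blue points at least 2-fold lower in N3, dashed lines mark 2-fold, and the thin vertical line is the median of all genes at -0.06. The synaptic and skeletal muscle lists have the highest medians (1.94 and 1.91, in the other order with hybridisation-control scaling, at 1.57 and 1.71) and the endoderm and liver list the lowest (-2.43).

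Transcription factors of neural stem and progenitor cells were higher in N3. Of 13 measured members of that list (13 of 25 listed genes are on the array), 7 were at least 2-fold higher and 1 lower, with a median log2 ratio of 1.09. PAX6, a master factor of neural progenitors, had signals of 753 in ESC and 419 in EB, then 306 in N1, 3301 in N2 and 3322 in N3, so N3 was 10.8-fold above N1 (log2 3.44, and 3.16 by its other probe set). By this probe set the N2 signal was near that of N3, but the other probe set read 659 in N2 and 1490 in N3. The N2 array also had the highest actin ratio, so the time of the rise was not settled. SOX2, which keeps both pluripotent and neural stem cells undifferentiated, read 14978 in N3 and 5056 in N1, against 19736 in ESC. SOX3, its close relative, was 6.69-fold higher at 3686 in N3 and 551 in N1, against 4135 in ESC. ZIC2, another early neural factor, read 6232 in N3 and 2158 in N1, against 13866 in ESC. VIM, the intermediate filament vimentin, was bright on both arrays at 39954 in N3 and 22738 in N1, which is within 2-fold, and its other probe sets gave between -0.01 and 0.62. The exception past 2-fold was HMGA2, a chromatin protein of young stem cells, at 207 in N3 and 457 in N1, which is named here after its values were seen and whose other probe sets gave -0.59 and -0.25. NES (nestin), the marker used to describe the expansion stage, was not analysed here.

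Of 22 measured members of the Notch pathway 7 were higher and 2 lower in N3, with a median of 0.62. Among the ligands, DLL1 read 6058 in N3 and 1221 in N1, a 4.96-fold difference, although its other probe set gave a log2 ratio of 0.27. DNER, a neuronal Notch ligand, was 18.3-fold higher at 5577 in N3 and 305 in N1. Among the targets, HES5 was 9.43-fold higher at 2586 in N3 and 274 in N1, while its other probe set pointed the other way (-0.42). In contrast HES1, the target that is also active in many non-neural cells, was 4.17-fold lower at 115 in N3 and 480 in N1. HEY1, a target with a large role in vessels and heart, was the other lower member at 1171 in N3 and 2472 in N1 (named after its values were seen). Apart from the ligands and targets, HES6, which promotes neurogenesis, was 3.33-fold higher at 2843 in N3 and 853 in N1.

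Factors that start or follow neuronal differentiation were higher in 9 of 19 measured members and lower in none of them, with a median of 0.96 (24 of 33 listed genes are on the array). POU4F2, a factor of retinal ganglion and sensory neurons, read 2687 in N3 and 130 in N1, a 20.7-fold difference. LHX9, of dorsal interneurons, read 1886 in N3 and 85.2 in N1 and was at least 18.9-fold higher. Its other measured probe set gave a log2 ratio of at least 0.65. MYT1L, which represses non-neuronal genes in neurons, was at least 18.0-fold higher at 1800 in N3 and 53.1 in N1. Its other measured probe set gave a log2 ratio of at least 0.86. EBF1 and EBF2, which act in migrating young neurons, were 3.29-fold and 4.33-fold higher, and for both genes the other probe set passed 2-fold as well (log2 1.71 and 1.85). INSM1, of newborn neurons and neuroendocrine cells, read 4422 in N3 and 1668 in N1.

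The neuronal cytoskeleton and growth list had 15 of 23 measured members higher in N3 (65.2%) and none lower, with a median of 1.43. GPM6A, a membrane glycoprotein of growing neurites, was 21.5-fold higher, with 231 in ESC and 132 in EB, then 293 in N1, 3246 in N2 and 6305 in N3. Its other probe sets gave log2 ratios between 2.27 and 4.02. MAP6, which stabilises microtubules, was 12.2-fold higher at 3621 in N3 and 296 in N1, and its other probe set gave nearly the same ratio (3.56 against 3.61). DCX, the microtubule protein doublecortin of migrating neurons, read 10607 in N3 and 2222 in N1. CRMP1, a mediator of growth cone signals, read 10533 in N3 and 1472 in N1. L1CAM, an adhesion molecule of axons, was 6.18-fold higher at 2787 in N3 and 451 in N1. STMN2, a tubulin-binding protein of growth cones, read 24814 in N3 and 12594 in N1 (log2 0.98). TUBB3, the neuronal tubulin, read 7590 in N3 and 2852 in N1 (2.66-fold), and its other measured probe sets gave larger log2 ratios of 1.69 and 1.90.

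RNA-binding proteins that control neuronal splicing and transcript stability were higher in 6 of 10 measured members and lower in none of these, with a median of 1.33. RBFOX1, a neuronal splicing factor, was 13.3-fold higher at 4189 in N3 and 315 in N1, and its other probe sets gave log2 ratios of 3.19 and 4.15. ELAVL4 (HuD), which stabilises neuronal transcripts, read 4490 in N3 and 1344 in N1. NOVA1, another neuronal splicing factor, read 1650 in N3 and 531 in N1. CELF3 was 7.49-fold higher by its brightest probe set (1626 in N3, 217 in N1) but not past 2-fold by the other (0.60). ELAVL3 reached only 124 in N3, against 2.80 in N1.

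Synaptic and secretory genes had a median of 1.94, with 12 of 21 measured members higher (57.1%) and none lower, while 46 genes were listed and 24 of them are on the array. SYT4, a calcium sensor of vesicle release, read 8174 in N3 and 1149 in N1, a 7.11-fold difference. SYT1, the calcium sensor of fast release, was 5.63-fold higher at 2985 in N3 and 530 in N1, and its other probe sets gave log2 ratios between 1.79 and 2.57. Its brightest probe set read 4177 in ESC, above its N3 signal. Of the granule proteins, CHGB read 1340 in N3 and 214 in N1, and SCG2 read 1472 in N3 and 254 in N1. SV2C, a vesicle protein, was at least 10.3-fold higher at 1027 in N3 and 72.7 in N1. RAB3A, a vesicle GTPase, was at least 6.11-fold higher at 611 in N3 and 38.8 in N1.

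Voltage-gated and related channels were higher in 8 of 19 measured members and lower in none of those, with a median of 0.61. With hybridisation-control scaling 8 were higher and 1 lower. The sodium channel subunit SCN3A, typical of embryonic neurons, read 2373 in N3 and 337 in N1, a 7.05-fold difference. SCN2A was at least 9.09-fold higher at 909 in N3 and 63.5 in N1, with at least 0.38 by its other probe set. The potassium channel gene KCNA2 was at least 5.15-fold higher at 515 in N3 and 6.57 in N1. Axon guidance genes were higher in 9 of 28 measured members, with a median of 0.71 and no member lower by 2-fold. With hybridisation-control scaling 8 of 29 were higher and 1 lower, with a median of 0.33. ROBO3, a receptor that lets commissural axons cross the midline, was 8.30-fold higher at 1097 in N3 and 132 in N1. The ephrin receptors EPHB1 (3006 in N3, 449 in N1) and EPHA5 (776 in N3, 105 in N1) were higher by 6.70-fold and 7.40-fold, and the other probe sets of both had log2 ratios of 1.80 or more.

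**Figure D4:**
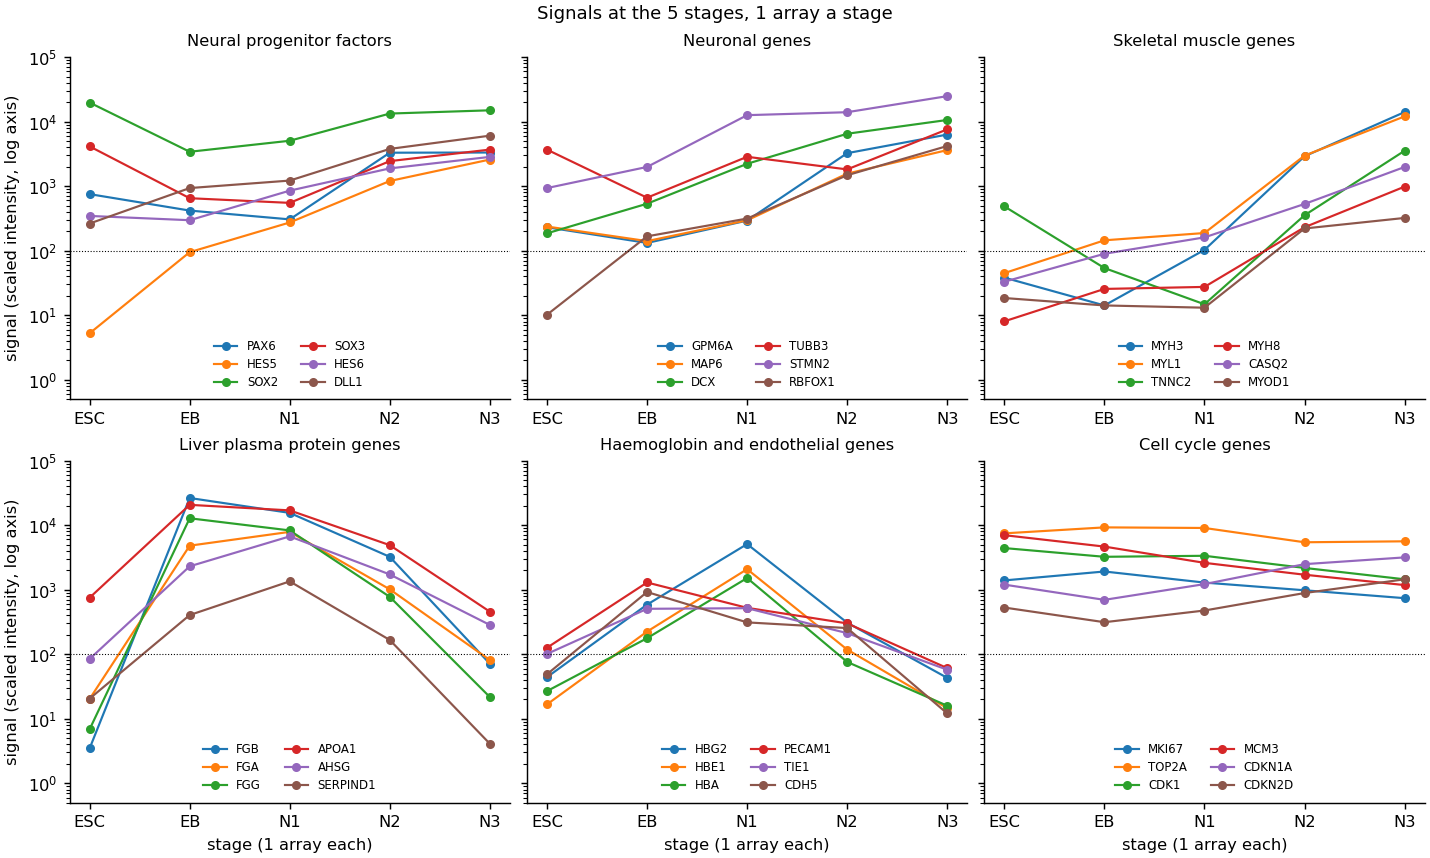
Signals of selected genes on the 5 arrays in stage order (horizontal), 1 array a stage, in scaled intensity on a log axis, with the floor of 100 dotted. Neuronal and skeletal muscle genes are highest in N3 (GPM6A 6305, MYH3 14054), while the fibrinogen gene FGB reads 26301 in EB and 15461 in N1, but 3222 in N2 and 71.2 in N3. Of the cell cycle genes, MKI67 lies between 738 in N3 and 1911 in EB.

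The label of N3 names serotonin neurons, and the genes that define this cell type did not mark the N3 array. TPH1 and TPH2, the tryptophan hydroxylases that start serotonin synthesis, read 3.06 and 5.36 in N3, against 2.28 and 8.28 in N1. Both stayed below the floor on each of the 5 arrays. LMX1B, a factor needed for these neurons, read 24.7 in N3 and 16.1 in N1, and the autoreceptor gene HTR1A (named after its values were seen) read 6.76 in N3 and 11.5 in N1. FEV, the factor most specific to serotonin neurons, read 85.3 in N3 and 121 in N1. A signal below the floor does not show that the transcript was absent. SLC6A4 and DDC were not analysed here.

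Of the 9 measured members of the serotonin neuron list (13 of 21 listed genes are on the array), none was higher and 1 was lower, with a median of -0.28, and 4 were lower with hybridisation-control scaling. GCH1, which makes the cofactor of tryptophan and tyrosine hydroxylases, was the lower one at 153 in N3 and 501 in N1 (3.28-fold). GATA3, which also marks trophoblast and other tissues, read 895 in N3 and 1418 in N1. GATA2 read 107 in N3 and 200 in N1. SLC18A2, the vesicular monoamine transporter, read 150 in N3 and 178 in N1. The summed signal of the measured members was 3131 in N3 and 4568 in N1. The list of the ventral hindbrain and floor plate, from which serotonin neurons arise, had 1 of 11 measured members higher and 1 lower, with a median of 0.23 that became -0.05 with hybridisation-control scaling. SLIT1, an axon repellent of the floor plate, was at least 3.04-fold higher at 304 in N3 and 21.8 in N1. FOXA1, shared by floor plate and endoderm, was 5.18-fold lower at 523 in N3 and 2709 in N1.

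The GABA neuron list was the transmitter group with the most members past 2-fold, with 7 of 9 measured higher, none lower and a median of 1.27. With hybridisation-control scaling 5 were higher. The list holds GABA receptor subunits as well as genes of inhibitory neurons. GAD1, which makes GABA from glutamate, read 7.17 in ESC and 526 in EB, then 162 in N1, 484 in N2 and 2342 in N3, so that N3 was 14.5-fold above N1. Its other probe sets gave log2 ratios of 1.14 and 1.56. GAD2, the second such enzyme, read 1230 in N3 and 560 in N1 and was highest in N2 at 1737, while its other probe set gave 0.06. ABAT, which breaks GABA down and is also active in liver and glia, read 8165 in N3 and 1935 in N1 (0.77 by its other probe set). The receptor subunit genes GABRB1, GABRA2 and GABRA3 read 530, 430 and 242 in N3, against 83.5, 115 and 41.5 in N1. For GABRB1 the other measured probe set gave at least 0.92. DLX1, a factor of forebrain inhibitory neurons, was 2.14-fold higher at 838 in N3 and 392 in N1.

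**Figure D5:**
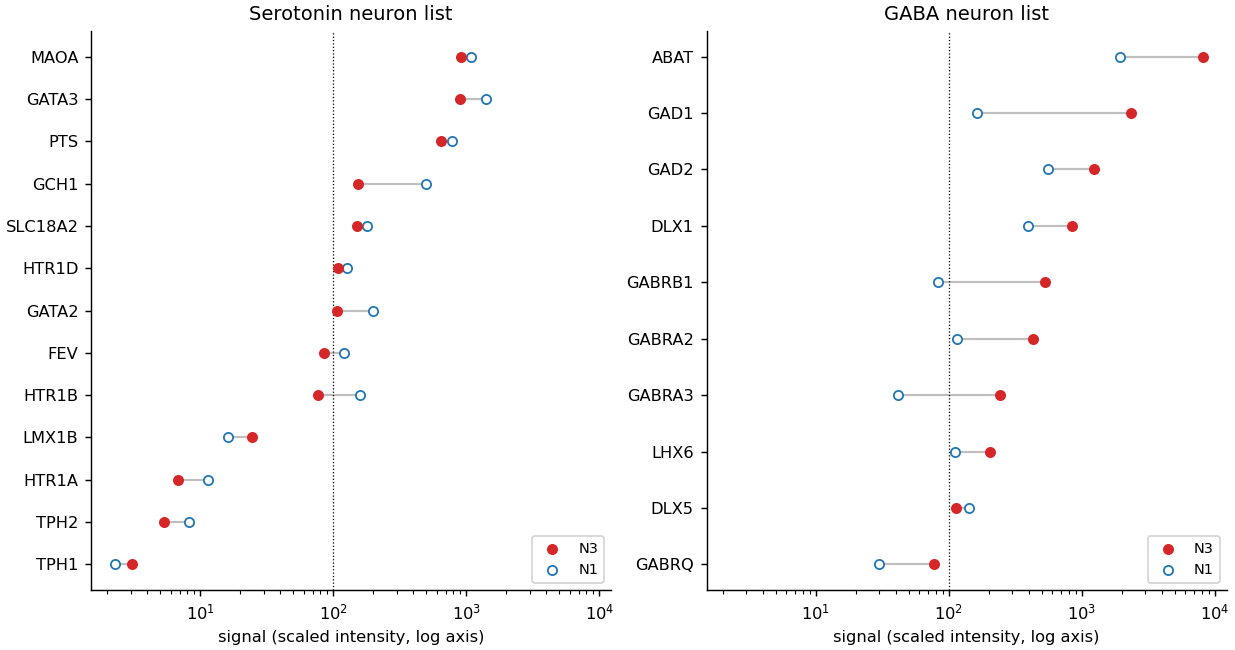
Signals in N3 (filled red) and N1 (open blue) of each gene on the array from the serotonin neuron list (left) and the GABA neuron list (right), in scaled intensity on a log axis, 1 array a stage, with the floor of 100 dotted. No serotonin gene is 2-fold higher in N3 and 4 lie below the floor on both arrays, whereas GAD1 reads 2342 in N3 and 162 in N1.

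In the glutamate list, 4 of 6 measured members were higher and none lower, with a median of 1.41. With hybridisation-control scaling 4 were higher and 1 lower. The summed signal of the measured members was lower in N3, at 7870 against 8983 in N1. Higher members were the receptor subunits GRIK2 (591 in N3, 114 in N1), GRIA4 (648 in N3, 137 in N1) and GRIA1 (569 in N3, 208 in N1). The vesicular transporter SLC17A8 (259 in N3, 93.8 in N1) was the remaining one. The other probe sets of GRIK2 (167 in N3, 72.7 in N1) and GRIA1 (155 in N3, 55.0 in N1) lay below the floor in N1. Their log2 ratios were therefore at least 0.74 and 0.63. Catecholamine and acetylcholine genes had 1 of 11 measured members higher, with a median of 0.06 that turned to -0.32 with hybridisation-control scaling and -0.02 with quantile normalisation. That member was the nicotinic receptor subunit CHRNA3, at 240 in N3 and 80.6 in N1 (0.75 by its other probe set). Among neuropeptides 2 of 10 measured members were higher and 2 lower, with a median of -0.18 that became 0.03 when the median of each gene's probe sets was used. NPY (neuropeptide Y) stood out at 2860 in N3 and 67.7 in N1, at least 28.6-fold higher. VGF, a secreted neuronal precursor protein, read 1309 in N3 and 236 in N1, against 4127 in ESC. The lower members were TAC3 (153 in N3, 466 in N1) and NXPH2 (193 in N3, 421 in N1).

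Of 13 measured astrocyte and radial glia genes 5 were higher (38.5%) and 1 lower, with a median of 0.96. The glutamate transporters SLC1A2 and SLC1A3, which radial glia and astrocytes use to clear glutamate, were 15.7-fold and 5.85-fold higher. SLC1A2 read 2340 in N3 and 149 in N1, and SLC1A3 read 4452 in N3 and 761 in N1 (1.82 by its other probe set). PTPRZ1, a phosphatase of radial glia, read 1101 in N3 and 280 in N1, with at least 0.42 by its other probe set. Its signal in ESC was 1761. GFAP, the filament of mature astrocytes, read 684 in N3 and 742 in N1 by its brightest probe set, and its other probe set gave 1.21 in the other direction. ALDH1L1, an astrocyte enzyme also found in liver, was at least 2.13-fold lower at 78.2 in N3 and 213 in N1. In the oligodendrocyte list, of 8 measured members CSPG4 was higher (683 in N3, 317 in N1, with 0.39 by its other probe set) and MYRF lower, and the median of 0.03 became -0.35 with hybridisation-control scaling and lay between -0.19 and -0.03 with other floors or the median of probe sets. MYRF read 795 in N3 and 3435 in N1. CD68, a lysosomal protein of macrophages that other cells also make, was 4.44-fold higher among 4 measured microglia and macrophage genes (2364 in N3, 532 in N1), with -0.31 by its other probe set, while CD14 was lower at 92.5 in N3 and 234 in N1.

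Neural crest genes had 1 of 13 measured members higher and 2 lower, with a median of 0.45. TFAP2A, an early crest factor, was 2.90-fold higher at 6271 in N3 and 2165 in N1. MSX2 (835 in N3, 2300 in N1) and NGFR (105 in N3, 234 in N1) were lower. HOX genes set position along the hindbrain and spinal cord. Of the anterior groups 1 to 5, 1 of 8 measured members was higher, with a median of 0.16 that became -0.21 with hybridisation-control scaling. That member was HOXA5, at 4166 in N3 and 1497 in N1. Of the posterior groups 6 to 13, 3 of 15 were higher and 1 lower, with a median of 0.82. With hybridisation-control scaling 1 was higher and 2 lower, with a median of 0.45, and the difference between the HOX groups was not tested. HOXA9 was the brightest of those past 2-fold at 11316 in N3 and 5296 in N1. HOXA7 read 2339 in N3 and 897 in N1, and HOXA13 was lower at 268 in N3 and 596 in N1. Posterior HOX signal was therefore present on both arrays, while in the forebrain and midbrain list 6 of 14 genes on the array were measured at all. DLX1, given above, and PAX8 (515 in N3, 89.4 in N1, with 0.00 to 0.50 by its other probe sets) were the 2 of those 6 that were higher.

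Skeletal muscle genes held the largest ratios among the genes higher in N3. Of 18 measured members 12 were higher in N3 (66.7%) and none lower, with a median of 1.91, and the summed signal of the measured members was 49899 in N3 and 9241 in N1. MYH3, the embryonic myosin heavy chain, read 38.3 in ESC and 14.2 in EB, then 103 in N1, 2905 in N2 and 14054 in N3, a 137-fold difference between N3 and N1. MYL1, a fast-fibre myosin light chain, was 64.2-fold higher at 12049 in N3 and 188 in N1. TNNC2, the fast-fibre troponin C, was at least 35.4-fold higher at 3537 in N3 and 14.8 in N1. CASQ2 (1982 in N3, 161 in N1) stores calcium in muscle, MYH8 (983 in N3, 27.5 in N1) is the perinatal myosin and MYBPH (982 in N3, 12.0 in N1) is a myosin-binding protein. KLHL41, a muscle protein outside the list, was 22.7-fold higher at 2330 in N3 and 103 in N1 (at least 0.90 by its other probe set). MYOD1, the factor that commits cells to muscle, is named after its values were seen and read 322 in N3 and 13.1 in N1. The part of muscle cells in the other differences was not tested.

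Heart and other mesoderm genes had 1 of 14 measured members higher, 5 lower and 8 within 2-fold, with a median of -0.49. Their summed signal was larger in N3, at 31546 against 26936 in N1. ACTC1, the cardiac actin that embryonic skeletal muscle also uses, was the higher one at 20334 in N3 and 5561 in N1. The rise of ACTC1 was larger than that of the summed signal, so the other members together were lower in N3. MYL7, the atrial light chain, read 1833 in N3 and 7044 in N1. MYL3, a ventricular and slow-fibre light chain, was at least 9.71-fold lower at 69.1 in N3 and 971 in N1. HAND1, of heart, extraembryonic mesoderm and trophoblast, was 13.9-fold lower at 280 in N3 and 3897 in N1. The remaining lower members were HAND2 (348 in N3, 705 in N1) and TNNI3 (241 in N3, 492 in N1). Of 9 measured smooth muscle genes, ACTG2 (5346 in N3, 616 in N1) and TAGLN (7431 in N3, 2492 in N1) were higher, and the list median of 0.17 became -0.20 with hybridisation-control scaling.

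Connective tissue and matrix genes were higher in 8 of 27 measured members and lower by 2-fold in none of them, with a median of 0.49. With hybridisation-control scaling 6 were higher and 1 lower, with a median of 0.11. COL12A1, a collagen of tendon and fascia, read 5514 in N3 and 468 in N1, an 11.8-fold difference. The small proteoglycans OGN (1526 in N3, 152 in N1) and FMOD (1254 in N3, 134 in N1) were also higher, FMOD by 9.34-fold. ASPN, a related proteoglycan outside the list, was 19.2-fold higher at 3680 in N3 and 192 in N1. COL1A1 read 20539 in N3 and 8634 in N1, whereas COL3A1 read 178 in N3 and 284 in N1. Cartilage genes had 2 of 13 measured members higher and 1 lower, with a median of 0.48, but none higher and 4 lower with hybridisation-control scaling. HAPLN1, which links matrix proteoglycans, was the lower one at 518 in N3 and 3596 in N1, and its other probe sets gave -2.82 and -2.78. The higher ones were SOX9 (244 in N3, 102 in N1) and COL9A1 (798 in N3, 336 in N1).

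Genes of endoderm and liver gave the largest number of lower members of any list. Of 29 measured members 22 were lower in N3 (75.9%) and none higher, with a median of -2.43, and the summed signal was 11489 in N3 and 122811 in N1. All 29 reached the floor in N1 and 19 did in N3. The fibrinogen chain genes, whose products form clots, showed the largest ratios. FGB read 3.48 in ESC and 26301 in EB, then 15461 in N1, 3222 in N2 and 71.2 in N3, so N3 was at least 155-fold lower than N1, and its other probe set gave a log2 ratio of -6.68. FGG was at least 82.7-fold lower at 21.7 in N3 and 8274 in N1, and FGA at least 78.6-fold lower at 81.3 in N3 and 7857 in N1. Of the apolipoproteins, which carry lipid in blood, APOA1 was 37.1-fold lower at 456 in N3 and 16909 in N1. APOA2 (205 in N3, 5293 in N1) and APOC3 (400 in N3, 9328 in N1) were 25.9-fold and 23.3-fold lower, and the other probe sets of APOC3 gave -4.27 and -0.36. AHSG, the plasma protein fetuin, read 284 in N3 and 6691 in N1. Outside the list, PLG (plasminogen) was at least 25.1-fold lower at 68.1 in N3 and 2509 in N1, and CEBPA, a liver and myeloid factor, was 16.1-fold lower at 222 in N3 and 3568 in N1. AFP, the usual marker of fetal liver and yolk sac, differed little and was dim on both arrays, at 437 in N3 and 484 in N1.

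Epithelial genes had 1 of 16 measured members higher and 7 lower (12 with hybridisation-control scaling), with a median of -0.96. KRT8, a keratin of simple epithelia, was 8.23-fold lower at 314 in N3 and 2586 in N1. KRT19 read 1118 in N3 and 7979 in N1, and EPCAM, an epithelial adhesion molecule, read 547 in N3 and 3563 in N1. ST14, an epithelial protease, was the higher member at 1004 in N3 and 225 in N1, although its other probe sets gave -0.18 and -0.16. In the trophoblast and amnion list 5 of 12 measured members were lower (8 with hybridisation-control scaling) and none higher, with a median of -0.91. These were HAND1 (given above), CDX2 (191 in N3, 1224 in N1), GABRP (107 in N3, 392 in N1), PGF (263 in N3, 686 in N1) and TBX3 (433 in N3, 1044 in N1).

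Vessel and blood genes were lower in N3 as well. Of 11 measured endothelial members 6 were lower and none higher, with a median of -1.02. PECAM1, the junction protein of endothelium, was at least 5.23-fold lower at 60.9 in N3 and 523 in N1, and TIE1, a receptor of vessel cells, at least 5.16-fold lower at 57.5 in N3 and 516 in N1. CDH5, the endothelial cadherin, read 12.1 in N3 and 311 in N1. TEK, another vessel receptor, was 3.31-fold lower at 1499 in N3 and 4963 in N1, but its other probe set gave 0.47. Of 7 measured erythroid and blood genes 5 were lower and 1 higher, with a median of -1.32. HBG2, a fetal globin, read 44.1 in ESC and 586 in EB, then 5079 in N1, 308 in N2 and 43.0 in N3, which makes N3 at least 50.8-fold lower than N1. HBE1, the embryonic globin, was at least 20.8-fold lower at 14.6 in N3 and 2077 in N1. The alpha globin HBA was at least 15.1-fold lower at 15.9 in N3 and 1513 in N1. All 3 globins were thus brightest in N1 and below the floor in N3. RUNX1, a blood factor that other tissues also use, was the higher member at 482 in N3 and 146 in N1, with -0.51 by its other probe set.

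Pluripotency genes had 2 of 8 measured members higher and 2 lower, with a median of 0.12 that became -0.23 with hybridisation-control scaling. POU5F1, which holds cells pluripotent, read 28621 in ESC and 906 in EB, then 249 in N1, 80.3 in N2 and 14.7 in N3. LIN28B, an RNA-binding protein of stem and fetal cells, was 3.85-fold lower at 1400 in N3 and 5386 in N1. The higher members were SOX2, described above, and KLF4 (1048 in N3, 390 in N1).

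Genes of DNA replication and mitosis were lower in 8 of 27 measured members and higher in none of them, with a median of -0.85, and 27 of 40 listed genes are on the array. With hybridisation-control scaling 18 were lower, with a median of -1.22. CCNE1, the cyclin of S phase entry, was 3.13-fold lower at 440 in N3 and 1378 in N1. CDK1, the kinase that drives mitosis, read 1447 in N3 and 3347 in N1, and its other probe sets gave -2.13 and -1.20. MCM3, of the replication helicase, read 1177 in N3 and 2601 in N1. MKI67 (738 in N3, 1287 in N1) and TOP2A (5609 in N3, 9027 in N1) were within 2-fold, and all 27 members stayed above the floor in N3. Among 14 measured genes of cell cycle exit, 5 were higher and none lower, with a median of 0.42. With hybridisation-control scaling 4 were higher and 1 lower, with a median of 0.04. The 5 higher genes were inhibitors of cyclin-dependent kinases and the growth arrest gene GADD45G (1022 in N3, 487 in N1). The inhibitors were CDKN2A (922 in N3, 227 in N1), CDKN2D (1446 in N3, 475 in N1), CDKN2C (487 in N3, 182 in N1) and CDKN1A (3160 in N3, 1218 in N1).

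N3 medium lacked the FGF4 that had been given in N2, and N1 medium had not held it either. Of 17 measured genes of the FGF pathway 5 were higher in N3 and none lower, with a median of 0.48. With hybridisation-control scaling 4 of 18 were higher and 1 lower, with a median of 0.15. SPRY2, a feedback inhibitor that FGF signals induce, read 3470 in ESC and 1960 in EB, then 1791 in N1, 5350 in N2 and 8842 in N3, so that N3 was 4.94-fold above N1, with 0.59 by its other probe set. SPRY4, another such inhibitor, was 2.20-fold higher at 375 in N3 and 170 in N1. The secreted FGF carrier FGFBP3 was 16.9-fold higher at 2218 in N3 and 131 in N1 by its brightest probe set and 0.18 on the log2 scale by the other. The ligand FGF9 read 1065 in N3 and 325 in N1, and FGF13, an intracellular relative that acts on neuronal sodium channels, read 5779 in N3 and 2209 in N1.

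WNT pathway genes had 12 of 37 measured members higher and 4 lower, with a median of 0.42. With hybridisation-control scaling 9 were higher and 8 lower, with a median of 0.05. LGR5, a receptor that strengthens WNT signals in stem cells, was 8.00-fold higher at 1993 in N3 and 249 in N1. The ligand WNT7A was at least 6.76-fold higher at 676 in N3 and 18.8 in N1, and the receptor FZD10, of the dorsal neural tube, read 8172 in N3 and 2723 in N1. The lower members were the ligand WNT2 (127 in N3, 696 in N1), the transcription factor TCF7 (124 in N3, 490 in N1, with -0.03 by its other probe set) and, named after their values were seen, the ligand WNT5A (1738 in N3, 4226 in N1) and the receptor FZD5 (118 in N3, 285 in N1). In the BMP and TGF-beta list 3 of 21 measured members were higher and 5 lower, with a median of 0.16 that became -0.26 with hybridisation-control scaling and -0.05 with a floor of 50. INHBA, a subunit of activin, was 12.6-fold higher at 1613 in N3 and 128 in N1, and its other probe set gave 3.02. The ligands BMP2 (260 in N3, 945 in N1) and BMP4 (819 in N3, 2099 in N1) and the inhibitors BAMBI (2277 in N3, 7748 in N1) and SMAD6 (457 in N3, 1137 in N1) were lower, whereas the ligand BMP7 read 1713 in N3 and 582 in N1, with -0.49 to 0.69 by its other probe sets.

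Retinoic acid genes had 3 of 12 measured members lower and none higher, with a median of -0.85, and 8 lower with hybridisation-control scaling. CRABP2, which carries retinoic acid to its receptor, was 4.05-fold lower at 1762 in N3 and 7128 in N1. ALDH1A2, which makes retinoic acid, read 1335 in N3 and 3073 in N1 and was also lower by its other probe set (-1.78), and STRA6, which takes up retinol, read 330 in N3 and 745 in N1. Of 14 measured insulin-like growth factor genes 2 were higher and 2 lower, with a median of -0.23 (1 higher and 4 lower with hybridisation-control scaling). IGFBP2, a binding protein abundant in neural progenitors, read 21575 in N3 and 6832 in N1, and the receptor IGF1R read 820 in N3 and 405 in N1 (0.71 and 0.80 by its other probe sets). The lower ones were IGFBP7 (1853 in N3, 4375 in N1), whose other probe sets ran between -2.60 and 2.34, and IGF2BP1 (235 in N3, 522 in N1, with -0.53 by its other probe set).

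Glycolysis and hypoxia genes were higher in 7 of 21 measured members and lower by 2-fold in none of them, with a median of 0.71. With hybridisation-control scaling 3 were higher and the median was 0.34. ADM, a peptide hormone gene induced by low oxygen, was 6.23-fold higher at 2269 in N3 and 364 in N1, and DDIT4, another such gene, read 13643 in N3 and 4251 in N1. GPI, a glycolytic isomerase, read 17309 in N3 and 4805 in N1, with 0.40 and 0.71 by its other probe sets. HK2, which traps glucose in the cell, read 1077 in N3 and 437 in N1. Of 20 measured genes of oxidative phosphorylation, COX7B (6771 in N3, 15850 in N1) and NDUFA4 (3903 in N3, 7853 in N1) were lower and none was higher, with a median of -0.49, and 8 were lower with hybridisation-control scaling. In cholesterol synthesis, EBP was the only one of 16 measured genes past 2-fold, at 2348 in N3 and 4767 in N1 (-0.72 by its other probe set), with a list median of -0.28.

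Of 17 measured cytosolic ribosomal protein genes, RPL4 was higher (1168 in N3, 553 in N1) and the median was -0.04. Of 14 measured stress and unfolded protein response genes, TXNIP was higher (9172 in N3, 4306 in N1, with 0.07 to 0.90 by its other probe sets), with a median of 0.11 that became -0.27 with hybridisation-control scaling. Of 15 measured interferon-induced and MHC genes 3 were lower (6 with hybridisation-control scaling) and none higher, with a median of -0.51. They were IFIT3 (126 in N3, 515 in N1, with other probe sets at -0.39 and -0.23), BST2 (615 in N3, 1899 in N1) and OAS3 (95.3 in N3, 207 in N1).

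Several genes with large ratios stood outside the lists. Higher in N3 were MAB21L1, a gene of eye and neural development, at 3362 in N3 and 210 in N1 (16.0-fold), and GNAO1, the G protein subunit abundant in brain, at 5656 in N3 and 426 in N1 (13.3-fold). OTP, a factor of hypothalamic neurons, was at least 12.8-fold higher at 1275 in N3 and 78.2 in N1, and SEZ6, a synaptic surface protein, at least 17.5-fold higher at 1752 in N3 and 76.0 in N1. NCL, the nucleolar protein nucleolin, was 15.1-fold higher by its brightest probe set (7019 in N3, 466 in N1) but did not differ by its other measured one (-0.02). Lower in N3 were SLC5A12, a lactate transporter of kidney and gut, at 186 in N3 and 6595 in N1 (35.5-fold), and PDZK1, a scaffold of kidney and liver transporters, which was at least 25.0-fold lower at 93.0 in N3 and 2498 in N1. SLC25A17, a peroxisomal carrier, was 34.6-fold lower at 422 in N3 and 14589 in N1, with -1.75 and -0.26 by its other probe sets. AGTR1, the angiotensin receptor, was 14.0-fold lower at 474 in N3 and 6640 in N1, and KYNU, an enzyme of tryptophan breakdown, was 17.1-fold lower at 173 in N3 and 2954 in N1.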

How the data were processed

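The authors deposited linear array intensities, with 1 value for every probe set on each of 5 arrays. GCOS 1.0, an Affymetrix package, is listed in the submitters' processing notes. The sources used here do not give its algorithm, detection calls or scaling target. The non-control probe sets of every array were brought to a mean of 500 after trimming 2% from each end (a factor of 2.508 to 2.511), floored at 100 and taken to log2. Signals in the text are before the floor. Of 52865 probe sets, 24969 had a single gene symbol in the GEO platform annotation (possibly outdated), 361 had several and 27535 were not listed. Each gene's value is that of its probe set with the highest mean over the 5 arrays, and other probe sets were kept as a check. Neither coordinates nor probe sequences were used here, since the sources name no build for the array.

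Genes were called at 2-fold, log2 of 1 or more, among those at 100 or more on N3 or N1. With 1 array a stage no test can be made, and the number of arrays limits the precision. The comparison, the gene lists and the rule for named genes were chosen with earlier results of these data known. The rule took the 15 genes with the largest ratio each way among those that reached 100 on both arrays and 200 on the brighter, the 8 brightest each way of those below 100 on the other array, up to 6 members of a list with the largest ratios past 2-fold, fixed markers whatever their value, and 5 genes each way whose next probe set agreed. A listed gene was matched by symbol, and 3 through a synonym (HBA for HBA2, ATP5F1B for ATP5B and LOC711326 for SDHD). The alternatives were 4 other scalings, a floor of 50 or 200, log2(value + 1) without a floor, other choices of probe set and a 4-fold threshold. Counting was tested on simulated data. Python 3.11.15, numpy 2.4.6 and pandas 2.3.3 were used, with scipy for the trimmed mean.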

Additional observations from a re-analysis of the deposited data

How the results depend on the processing

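The 897 higher and 710 lower genes became 897 and 712 with the values as deposited, 869 and 811 with quantile normalisation, 868 and 743 with equal medians, and 599 and 1847 with the hybridisation controls. They became 1098 and 998 with a floor of 50, 703 and 527 with a floor of 200, and 1092 and 987 with no floor. The median of probe sets gave 813 and 654, leaving out probe sets with the name endings _x_at and _s_at 871 and 690, choosing the brightest over N1 and N3 905 and 698, and the 4-fold threshold 244 and 116. The named genes gave 2244 values under 10 alternatives, of which 186 moved by more than the probe-set SD of 0.50 and 2 of these changed sign, both with the median of probe sets: ST14 at -0.16 and GFAP at 0.55. Of 450 list medians 13 moved by more than that, and 16 from 10 lists changed sign. The microglia and macrophage median of 4 genes did so by more than that SD, to 0.96 with a floor of 200, which left 2 of them measured, and the other lists are given above. The hybridisation controls shifted the median of all genes from -0.06 to -0.41, which is less than 0.50. The counts of moved values could therefore hardly register that scaling, although it took the lower genes from 710 to 1847. The causes were not tested. No paired analysis was possible because each stage has 1 array, and for the same reason no array could be left out. Ratios of dim genes depend on the floor, and 199 higher and 145 lower genes have only a bound.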

Other observations

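Of 26716 probe sets with no gene name here, 12079 were measured on N3 or N1. At least 2-fold higher in N3 were 1197 of them (9.91%) and 485 were lower (4.02%), with a median log2 ratio of 0.10. The largest ratio of a probe set at 100 or more on both arrays was 25.7-fold, with signals of 5876 in N3 and 228 in N1, and the largest lower one was 23.3-fold, at 104 in N3 and 2429 in N1. Both are without a gene name in the annotation used.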
